A study of Mus musculus with 12 samples.

Results

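The 10 genes described here mark retinal ganglion cells or parts of their axons: Rbpms, Pou4f1, Pou4f2, Thy1, Slc17a6, Sncg, Nefl, Nefm, Nefh and Opn4. They were picked by gene symbol from the 32867 genes of the count table, all 10 were found, and all 10 passed the filter on low counts in every comparison. RNA from entire retinae was sequenced in 12 samples, 3 per group. The C3H wild-type mice carried intact Pde6b and Prph2, and their 3 samples were labelled postnatal day 13, 23 and 29, 1 each. The Pde6b rd1 mice (C3H background in the methods) were at day 13 and carried a mutated rod phosphodiesterase beta subunit. The Pde6b rd10 mice carried another allele of that gene, were at day 23 and had a C57Bl6/J background in the methods, so that strain and allele cannot be told apart for them. The Prph rd2 mice, whose mutated gene is Prph2, a protein of photoreceptor outer segments, were at day 29. Their label names C57BL6/J while the methods name C3H. Mice were used without regard to sex, and the number of animals behind a sample was not given in the sources used here. P-values therefore measure the spread between these samples, which may be technical.

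Retinal ganglion cells are the output neurons of the retina. They receive signals from bipolar and amacrine cells and send their axons through the optic nerve to the brain. They make up a small share of retinal cells and lie in the innermost cell layer, away from the rods, which are the cells that die first in these models. The genes fall into roles: neurofilament subunits of the axon (Nefl, Nefm, Nefh), the surface glycoprotein Thy1, the cytosolic protein gamma-synuclein (Sncg), the vesicular glutamate transporter VGLUT2 (Slc17a6), the RNA-binding protein Rbpms, the POU-domain transcription factors Brn3a and Brn3b (Pou4f1 and Pou4f2), and melanopsin (Opn4), the photopigment of the ganglion cells that respond to light themselves.

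The depth of the gene counts lay between 17049495 and 24755890 reads per sample, and 3 counts, taken as the floor, corresponded to 0.121 to 0.176 CPM (counts scaled to library size). The fewest reads on any of the 10 genes in any sample were 72, for Opn4. The 3 C3H libraries were alike in spite of their labelled days. The chi-square of their counts per degree of freedom (1 for sampling noise alone) was 1.71 between the libraries labelled day 13 and day 23. It was 2.785 between those labelled day 13 and day 29, and 2.139 between day 23 and day 29. Libraries of a single day gave 1.67 to 3.33 in Pde6b rd1, 2.29 to 5.90 in Pde6b rd10 and 5.06 to 10.1 in Prph rd2. Every pair within a group was above 1, so all 12 were kept as separate samples. Glul, the glutamine synthetase of Mueller glia, stood at 1767, 1785 and 1818 CPM in the C3H libraries labelled day 13, 23 and 29, and at 602 to 629 CPM in the 3 Pde6b rd1 libraries of day 13. The C3H library labelled day 13 thus lay with the other C3H libraries and not with the Pde6b rd1 libraries of the same labelled day. Those Pde6b rd1 libraries also differ from it in genotype. Whether its labelled day is its age was not tested, and comparisons with the C3H sample of the same labelled day carry that doubt. Sex differed between the groups as well: Xist was at 0.384 to 0.511 CPM in C3H and at 3673 to 3902 CPM in Pde6b rd1, while the Y-linked Ddx3y was at 76.3 to 85.8 CPM in C3H and at 0 counts in Pde6b rd1. Both Xist and Ddx3y were present in each Pde6b rd10 and Prph rd2 library. Genotype, sex and age cannot be told apart in the comparisons below. Nor can strain for Pde6b rd10 and, if its label holds, for Prph rd2. Of the targeted genes, Pde6b was lowest in Pde6b rd1, at 56.7 to 57.6 FPKM against 241 to 245 FPKM in C3H. Prph2 was lowest in Prph rd2, at 421 to 482 FPKM against 885 to 976 FPKM in C3H. Both also lay below C3H in the other models. Pde6b was at 169 to 174 FPKM in Pde6b rd10 and 206 to 218 FPKM in Prph rd2. Prph2 was at 534 to 567 FPKM in Pde6b rd1 and 643 to 719 FPKM in Pde6b rd10.

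The ganglion cell genes were read in each model against the 3 C3H samples, to ask how far they moved at the peak of photoreceptor death. In Pde6b rd1, 7 of the 10 genes fell at an adjusted p under 0.05 (edgeR's quasi-likelihood test, Benjamini-Hochberg adjustment over 18310 genes), where 21.3% of all genes did so. None rose, and Pou4f1, Pou4f2 and Opn4 did not pass. In Pde6b rd10, 6 fell, where 26.3% of all genes did so. None rose, and Nefl, Nefh, Thy1 and Opn4 did not pass. In Prph rd2, Pou4f1 and Pou4f2 fell (5.17% of all genes) and Nefh rose (4.53%). None of these 3 passed without C3H replicate 1, C3H replicate 3, Prph rd2 replicate 1 or Prph rd2 replicate 2, Pou4f2 alone passed without C3H replicate 2, and all 3 passed without Prph rd2 replicate 3. Without Prph rd2 replicate 2, Nefm passed instead (-0.41, adjusted p = 6.39e-04, edgeR). Another rule asked for an unadjusted p under 0.05 and a change of at least 1.5-fold, and a gene that met it is named called. A called gene need not pass the adjusted p. Of all genes tested in Prph rd2, 850 were called and 384 of these also had an adjusted p under 0.05. Nefh and Thy1 were called as lower in Pde6b rd1 (6.03% of all genes), Pou4f2 was called as lower in Pde6b rd10 (8.08%), and no member was called in Prph rd2 (4.57% of all genes in either direction).

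The CPM of 7 members lay below C3H without overlap in Pde6b rd1 (25.2% of all genes). In Pde6b rd10, 7 lay below (27.7%) and 1, Nefl, above (31.2%), and in Prph rd2, 2 lay below (11.2%) and 2 above (17.9%). The share of members that lay apart as lower was thus above the share of all genes in Pde6b rd1 and Pde6b rd10. In Prph rd2, with 2 genes below and 2 above, the members are too few to set against these shares. The 10 genes were chosen with earlier results of these data known. The median log2 fold change of the 10 genes was -0.10 in Prph rd2, -0.31 in Pde6b rd10 and -0.34 in Pde6b rd1, against -0.00, -0.00 and -0.01 over all genes tested. All 3 comparisons use the same C3H samples. In whole retina, fewer ganglion cells and less RNA of a gene per cell cannot be told apart.

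**Figure D1:**
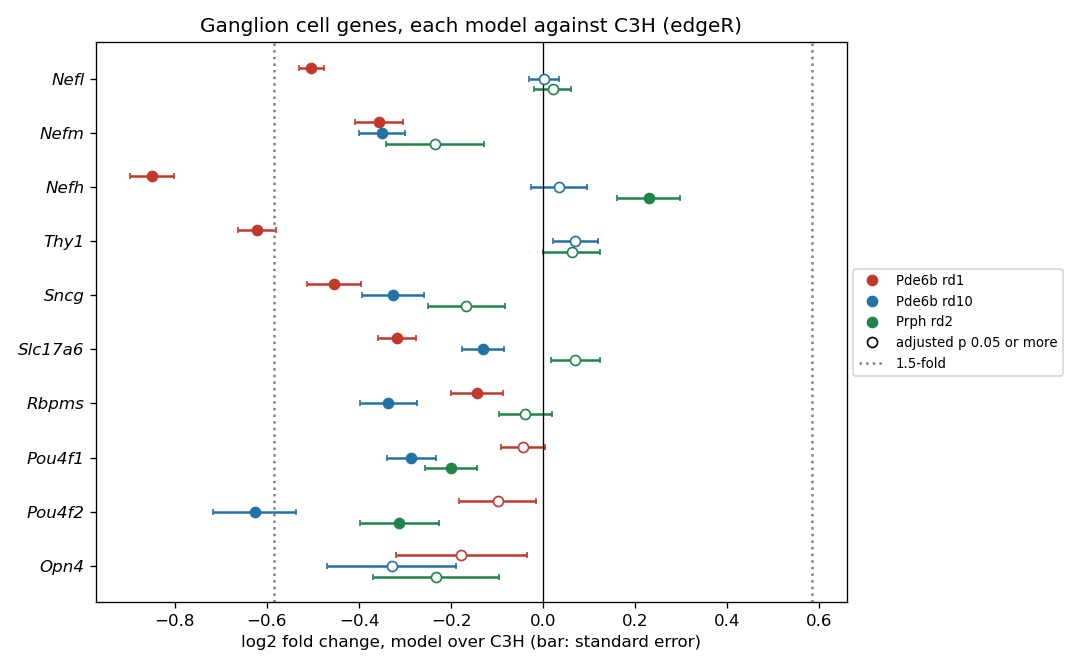
Log2 fold change of each ganglion cell gene (x axis, model over C3H, edgeR) with its standard error (bars), for Pde6b rd1, Pde6b rd10 and Prph rd2, 3 samples each against 3 C3H samples. Filled points have an adjusted p under 0.05 and dotted lines mark 1.5-fold. Nefh (-0.85), Thy1 (-0.62) and Nefl (-0.50) lie farthest to the left in Pde6b rd1, and Pou4f2 lies there in the other models, at -0.63 for Pde6b rd10 and -0.31 for Prph rd2.

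The neurofilament subunits were the most abundant of the 10 genes per length in the case of Nefl, the light chain that forms the core of the filament. Nefl (chr14:68083863-68089095, plus strand, GRCm38) stood at 187, 185 and 186 FPKM (fragments per kilobase of exon, scaled to the reads of the library) in C3H replicates 1, 2 and 3, and at 193, 194 and 193 FPKM in Pde6b rd10. It was at 192, 194 and 193 FPKM in Prph rd2 and at 137, 140 and 138 FPKM in Pde6b rd1. All 3 Pde6b rd1 samples thus lay below every other sample, by a gap far wider than the spread within any group. The log2 fold change of Nefl was -0.50 ± 0.03 (SE, n = 3 against 3, adjusted p = 2.96e-13, edgeR) in Pde6b rd1, a fall of 29.5%. In Pde6b rd10 it was 0.00 ± 0.03 (adjusted p = 0.975, edgeR) and in Prph rd2 0.02 ± 0.04 (adjusted p = 0.810, edgeR). The deposited FPKM values are scaled to the reads on genes alone and the test to TMM factors, so that FPKM of Nefl above C3H in Pde6b rd10 went with a fold change near none.

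Nefh (chr11:4938754-4948064, minus strand) encodes the heavy chain, which joins the filaments of mature, large axons. It was at 21.2, 21.6 and 22.8 FPKM in C3H and at 13.4, 12.4 and 12.4 FPKM in Pde6b rd1. The values were 23.3, 25.7 and 20.8 FPKM in Pde6b rd10 and 24.8, 29.6 and 24.1 FPKM in Prph rd2. Only the Pde6b rd1 samples lay below the C3H range as a group, and the Prph rd2 samples all lay above it. Nefh fell by 44.5% in Pde6b rd1, the largest change among the members in any comparison with C3H (log2 fold change -0.85 ± 0.05 SE, n = 3 against 3, adjusted p = 3.99e-13, edgeR). In Prph rd2 it rose by a log2 fold change of 0.23 ± 0.07 SE (adjusted p = 0.0485, edgeR), which was lost when any single sample other than Prph rd2 replicate 3 was left out. In Pde6b rd10 the log2 fold change of Nefh was 0.03 ± 0.06 (adjusted p = 0.661, edgeR).

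Nefm (chr14:68082590-68124846, minus strand), the medium chain, was at 30.2, 28.5 and 28.6 FPKM in C3H. It was at 25.4, 25.8 and 20.6 FPKM in Pde6b rd1, at 23.6, 25.7 and 22.0 FPKM in Pde6b rd10 and at 24.9, 31.2 and 19.9 FPKM in Prph rd2. Pde6b rd1 and Pde6b rd10 samples all lay below the C3H range, and Prph rd2 samples lay on both sides of it. The log2 fold changes of Nefm were -0.36 ± 0.05 SE in Pde6b rd1 (adjusted p = 6.64e-06, edgeR), -0.35 ± 0.05 SE in Pde6b rd10 (adjusted p = 5.04e-06) and -0.23 ± 0.11 SE in Prph rd2 (adjusted p = 0.196). Nefl and Nefm are neighbours on opposite strands and share 1108 exonic bases in GENCODE. The library was directional, but the strand setting of the counting was not given in the sources used here, so reads in that stretch may have gone to either gene or to none.

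**Figure D2:**
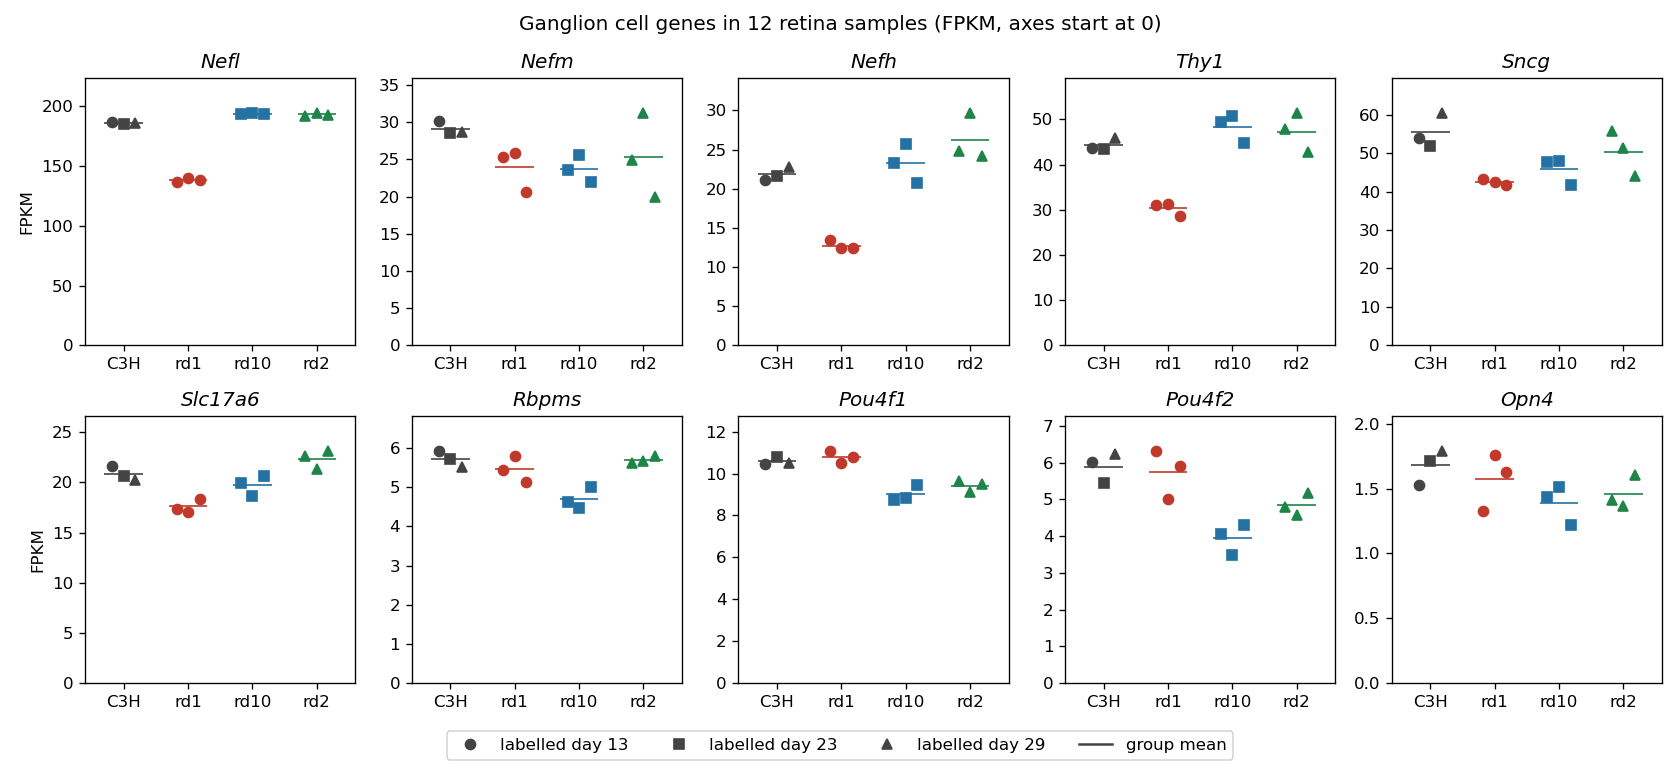
FPKM of the 10 ganglion cell genes (y axes, starting at 0) in the 12 samples, by group, replicates 1 to 3 from left to right, with the labelled day as the symbol and the group mean as a line. The Pde6b rd1 samples lie apart from all others for Nefl, Nefh and Thy1, and the C3H sample labelled day 13 lies with the other C3H samples, as for Nefl at 187 FPKM.

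The proportions of the subunits were compared within libraries. Nefh stood at 11.3 to 12.2 FPKM per 100 FPKM of Nefl in C3H and at 8.88 to 9.82 in Pde6b rd1, without overlap, and at 12.5 to 15.3 in Prph rd2, above C3H without overlap. Nefm stood at 15.4 to 16.2 FPKM per 100 FPKM of Nefl in C3H and at 11.4 to 13.2 in Pde6b rd10, again without overlap, while in Pde6b rd1 the range of 14.9 to 18.6 crossed that of C3H. Thus Nefh was low beside Nefl in Pde6b rd1 and high in Prph rd2, and Nefm was low beside Nefl in Pde6b rd10. With 3 samples against 3, the two-sided exact permutation test cannot give a p under 0.1, which was reached by these 3 contrasts (0.225 after adjustment over the 9 ratio tests). The differences of the means were -2.52 FPKM per 100 for Nefh in Pde6b rd1, 1.83 for Nefh in Prph rd2 and -3.38 for Nefm in Pde6b rd10. The longest transcripts of Nefh, Nefm and Nefl have 58.4%, 57.8% and 48.8% GC. The ratios were not corrected for GC, and its part in them was not tested.

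**Figure D3:**
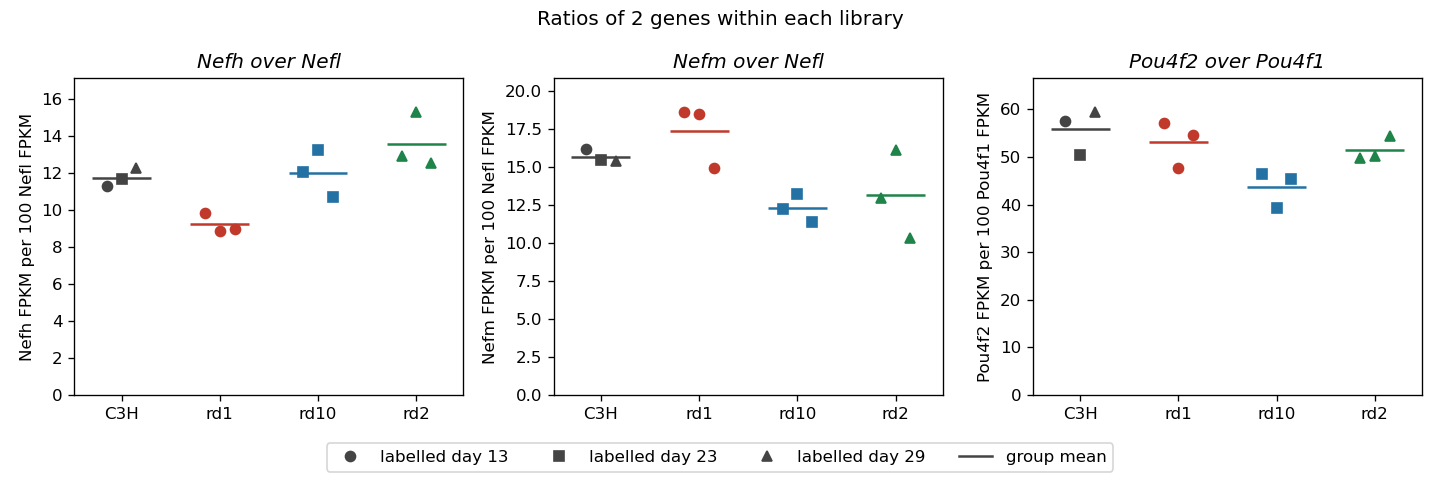
Ratios of 2 genes within each library, as FPKM of Nefh or Nefm per 100 FPKM of Nefl and of Pou4f2 per 100 FPKM of Pou4f1 (y axes, starting at 0), by group, with the labelled day as the symbol and the group mean as a line. Nefh over Nefl is at 8.88 to 9.82 in Pde6b rd1, below the C3H range of 11.3 to 12.2, and Pou4f2 over Pou4f1 is at 39.4 to 46.4 in Pde6b rd10, below the C3H range of 50.4 to 59.3.

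Thy1 (chr9:44043384-44048579, plus strand), a surface protein of neurons that is much used to mark ganglion cells, was at 43.6, 43.5 and 45.9 FPKM in C3H. It was at 31.0, 31.3 and 28.6 FPKM in Pde6b rd1, at 49.4, 50.8 and 44.7 FPKM in Pde6b rd10 and at 47.8, 51.3 and 42.7 FPKM in Prph rd2. As for Nefh, the Pde6b rd1 samples lay below all others. Thy1 fell by 35.0% in Pde6b rd1 (log2 fold change -0.62 ± 0.04 SE, n = 3 against 3, adjusted p = 1.02e-11, edgeR). The log2 fold change of Thy1 was -0.52 with a correction for the GC content of transcripts and -0.47 when counts were scaled to the sum of the amacrine, horizontal and bipolar markers (inner retina scaling), both under 1.5-fold. In Pde6b rd10 it was 0.07 ± 0.05 SE (adjusted p = 0.235, edgeR) and in Prph rd2 0.06 ± 0.06 SE (adjusted p = 0.599, edgeR).

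Sncg (chr14:34370274-34374789, minus strand) encodes gamma-synuclein, a small protein of ganglion cell bodies and axons. It was at 53.9, 51.9 and 60.4 FPKM in C3H and at 43.3, 42.4 and 41.6 FPKM in Pde6b rd1. It was at 47.6, 48.0 and 41.8 FPKM in Pde6b rd10 and at 55.7, 51.4 and 44.1 FPKM in Prph rd2. Both Pde6b models lay below the C3H range and Prph rd2 crossed it. The log2 fold change of Sncg was -0.45 ± 0.06 SE in Pde6b rd1 (adjusted p = 7.98e-07, edgeR), -0.33 ± 0.07 SE in Pde6b rd10 (adjusted p = 3.80e-04) and -0.17 ± 0.08 SE in Prph rd2 (adjusted p = 0.244).

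Slc17a6 (chr7:51622006-51671119, plus strand), which loads glutamate into the synaptic vesicles of ganglion cells, was at 21.6, 20.6 and 20.3 FPKM in C3H and at 17.3, 17.1 and 18.4 FPKM in Pde6b rd1. It was at 20.0, 18.7 and 20.7 FPKM in Pde6b rd10 and at 22.6, 21.3 and 23.1 FPKM in Prph rd2. The Pde6b rd1 samples lay below all others, and Pde6b rd10 and C3H overlapped in FPKM. The log2 fold change of Slc17a6 was -0.32 ± 0.04 SE in Pde6b rd1 (adjusted p = 8.87e-07, edgeR), -0.13 ± 0.05 SE in Pde6b rd10 (adjusted p = 0.0218) and 0.07 ± 0.05 SE in Prph rd2 (adjusted p = 0.469). The fall in Pde6b rd10 did not pass against the C3H sample of the same labelled day alone (adjusted p = 0.253, edgeR).

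Rbpms (chr8:33782643-33929863, minus strand), an RNA-binding protein found in nearly all ganglion cells, was at 5.92, 5.72 and 5.51 FPKM in C3H, at 5.43, 5.80 and 5.13 FPKM in Pde6b rd1 and at 5.63, 5.67 and 5.79 FPKM in Prph rd2. In Pde6b rd10 it was at 4.63, 4.47 and 5.02 FPKM, below every sample of the other groups. The log2 fold change of Rbpms was -0.34 ± 0.06 SE in Pde6b rd10 (adjusted p = 1.01e-04, edgeR), -0.14 ± 0.06 SE in Pde6b rd1 (adjusted p = 0.0421) and -0.04 ± 0.06 SE in Prph rd2 (adjusted p = 0.752). The fall of Rbpms in Pde6b rd1 was lost with the GC correction (adjusted p = 0.0775, edgeR) and the sign turned with inner retina scaling (0.012, adjusted p = 0.885).

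Pou4f1 and Pou4f2 encode related transcription factors, the second of which acts early in the formation of ganglion cells and the first in their maturation and type. Their upstream sequences are shown because both genes fell in Pde6b rd10 and Prph rd2 and neither passed in Pde6b rd1, together with that of Slc17a6, which fell in both Pde6b models. They are the 250 bases before the RefSeq start (GRCm38.p6), written 5′ to 3′ on the strand of the gene, with the GC box GGGCGG or its reverse complement in capitals. Of the 10 genes, 5 were in the RefSeq table of promoters, while Rbpms, Thy1, Nefl, Nefm and Nefh were not matched. Sncg, which also fell in both Pde6b models, and Opn4 were matched and are not shown. Sncg held 1 GC box and Opn4 0. A link between these sequences and the levels of the genes was not tested.
Pou4f2 (chr8:78436648-78436897, minus strand): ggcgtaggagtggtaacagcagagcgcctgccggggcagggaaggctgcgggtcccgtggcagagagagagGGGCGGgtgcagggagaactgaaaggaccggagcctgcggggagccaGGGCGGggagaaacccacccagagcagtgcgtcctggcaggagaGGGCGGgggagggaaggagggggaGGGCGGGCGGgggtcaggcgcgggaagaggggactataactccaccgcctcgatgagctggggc
Pou4f1 (chr14:104468000-104468249, minus strand): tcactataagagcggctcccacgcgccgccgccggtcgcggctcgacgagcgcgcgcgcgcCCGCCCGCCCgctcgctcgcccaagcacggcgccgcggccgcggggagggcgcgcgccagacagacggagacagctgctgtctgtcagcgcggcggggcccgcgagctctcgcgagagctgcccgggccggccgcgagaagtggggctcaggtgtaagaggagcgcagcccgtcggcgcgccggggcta
Slc17a6 (chr7:51621580-51621829, plus strand): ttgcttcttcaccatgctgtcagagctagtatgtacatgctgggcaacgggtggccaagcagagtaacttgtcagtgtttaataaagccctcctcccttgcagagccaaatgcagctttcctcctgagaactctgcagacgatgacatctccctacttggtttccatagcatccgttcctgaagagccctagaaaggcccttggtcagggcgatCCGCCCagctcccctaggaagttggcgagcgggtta
The GC content of these stretches was 70.8% for Pou4f2, 78.0% for Pou4f1 and 53.2% for Slc17a6. The GC box was present 5 times upstream of Pou4f2, with an overlapping pair counted as 2 sites, 2 times upstream of Pou4f1 and once upstream of Slc17a6, and 32.9% of 27025 promoters held at least 1 on either strand within the same 250 bases. The E-box CANNTG was found 2 times upstream of Pou4f1 and not upstream of Pou4f2 (66% of promoters held it), and neither held TATAAA (13%) or TAATTA (4.9%).

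Pou4f2 (chr8:78433010-78436645, minus strand) was at 6.01, 5.44 and 6.24 FPKM in C3H and at 6.32, 5.02 and 5.90 FPKM in Pde6b rd1. It was at 4.06, 3.48 and 4.29 FPKM in Pde6b rd10 and at 4.80, 4.56 and 5.16 FPKM in Prph rd2. The Pde6b rd10 samples were the lowest of all, the Prph rd2 samples lay between them and C3H, and the Pde6b rd1 samples overlapped C3H. Pou4f2 fell by 35.2% in Pde6b rd10 (log2 fold change -0.63 ± 0.09 SE, n = 3 against 3, adjusted p = 5.23e-06, edgeR), the only call in that comparison. The size was close to 1.5-fold, and without C3H replicate 3 or Pde6b rd10 replicate 2 the log2 fold change was -0.58 or -0.55 and the call was lost. In Prph rd2 the log2 fold change of Pou4f2 was -0.31 ± 0.09 SE (adjusted p = 0.0328, edgeR) and in Pde6b rd1 -0.10 ± 0.08 SE (adjusted p = 0.369).

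Pou4f1 (chr14:104461676-104467999, minus strand) was at 10.4, 10.8 and 10.5 FPKM in C3H and at 11.1, 10.5 and 10.8 FPKM in Pde6b rd1. It was at 8.75, 8.85 and 9.47 FPKM in Pde6b rd10 and at 9.63, 9.11 and 9.50 FPKM in Prph rd2, so that both of these groups lay below C3H. The log2 fold change of Pou4f1 was -0.29 ± 0.05 SE in Pde6b rd10 (adjusted p = 1.37e-04, edgeR), -0.20 ± 0.06 SE in Prph rd2 (adjusted p = 0.0373) and -0.04 ± 0.05 SE in Pde6b rd1 (adjusted p = 0.499). Pou4f2 stood at 50.4 to 59.3 FPKM per 100 FPKM of Pou4f1 in C3H and at 39.4 to 46.4 in Pde6b rd10, without overlap (two-sided exact permutation p = 0.1, the smallest possible, and 0.225 adjusted over 9 tests).

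Opn4 (chr14:34590618-34600142, minus strand), the melanopsin gene, was the scarcest member, with 72 to 122 reads per sample. It was at 1.53, 1.71 and 1.79 FPKM in C3H, at 1.33, 1.76 and 1.63 FPKM in Pde6b rd1, at 1.43, 1.52 and 1.22 FPKM in Pde6b rd10 and at 1.41, 1.37 and 1.60 FPKM in Prph rd2. The log2 fold changes of Opn4 were -0.18 ± 0.14 SE in Pde6b rd1 (adjusted p = 0.339, edgeR), -0.33 ± 0.14 SE in Pde6b rd10 (adjusted p = 0.0533) and -0.23 ± 0.14 SE in Prph rd2 (adjusted p = 0.335). None passed in these fits. In Pde6b rd10 the unadjusted p was 0.0291 and the CPM lay below C3H without overlap, and Opn4 passed with the GC correction (-0.31, adjusted p = 0.0478, edgeR) and without C3H replicate 1 (adjusted p = 0.0419) or Pde6b rd10 replicate 2 (adjusted p = 0.0358). Opn4 shares 130 exonic bases with the antisense gene Gm49012, with the same reserve on strand as for Nefl and Nefm.

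By their levels in C3H per length, the members ran from Nefl (mean 186 FPKM) through Sncg (55.4), Thy1 (44.3), Nefm (29.1), Nefh (21.9), Slc17a6 (20.8), Pou4f1 (10.6), Pou4f2 (5.89) and Rbpms (5.72) to Opn4 (1.68). The neighbours Nefh and Slc17a6, and Pou4f2 and Rbpms, overlapped across the 3 samples, and the other neighbours did not. Nefh, Nefm, Sncg, Opn4 and Thy1 have transcripts of 55.8 to 58.4% GC, against a median of 48.9% over the genes tested. The mean transcript GC weighted by reads was 48.7 to 49.1% in Pde6b rd1 libraries and 49.0 to 49.3% in C3H libraries. With the GC correction, which was added after the values were seen, the log2 fold changes in Pde6b rd1 were -0.74 for Nefh, -0.35 for Sncg and -0.25 for Nefm, and 6 of the 10 genes passed as lower, where 21.4% of all genes did so.

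The models were then compared with each other directly, in a fit of all 12 samples. Pde6b rd10 against Pde6b rd1 gave 4 members higher and 3 lower at an adjusted p under 0.05, where 30.2% and 27.0% of 19616 genes did so. Nefh (log2 difference 0.91 ± 0.08 SE) and Thy1 (0.72 ± 0.06 SE) were called, Nefl (0.53 ± 0.03 SE) and Slc17a6 (0.21 ± 0.05 SE) also passed, where 17.6% of all genes were called as higher. Pou4f2 (-0.50 ± 0.10 SE), Pou4f1 (-0.22 ± 0.05 SE) and Rbpms (-0.17 ± 0.06 SE) were lower in Pde6b rd10. Nefm, Sncg and Opn4 did not pass. With inner retina scaling, which moved the median of all genes to -0.17, 3 members passed as higher and 3 as lower (4213 and 8135 of all genes), Nefh was still called (0.74), Thy1 was not (0.55), and Pou4f2 was called as lower (-0.67). The 2 Pde6b models also differ in age, strain and sex. Prph rd2 against Pde6b rd1 gave Nefh (1.10 ± 0.08 SE) and Thy1 (0.71 ± 0.06 SE) as called and 5 higher and 1 lower at an adjusted p under 0.05, where 21.3% and 18.5% of all genes passed and 8.21% were called as higher. With inner retina scaling the median of all genes was -0.26, 4 members passed as higher and 2 as lower (1671 and 9644 of all genes), and Nefh (0.83) was called but not Thy1 (0.44). Pde6b rd10 against Prph rd2 gave no call (19.7% of all genes) and 4 lower, namely Pou4f2 (-0.31 ± 0.10 SE), Rbpms (-0.29 ± 0.06 SE), Slc17a6 (-0.20 ± 0.05 SE) and Nefh (-0.19 ± 0.07 SE), where 21.3% of all genes were. Of these, Rbpms alone passed with inner retina scaling (-0.20, adjusted p = 0.0164, edgeR).

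Other genes of ganglion cells moved in several directions. Their counts, here and for the axon cytoskeleton, axon injury, type and melanopsin cell lists below, are at an adjusted p under 0.05. They stand beside shares of all genes of 21.9% higher and 21.3% lower in Pde6b rd1. The shares were 27.7% and 26.3% in Pde6b rd10, and 4.53% and 5.17% in Prph rd2. Of 13 tested genes of the list of other ganglion cell genes, 5 rose and 5 fell in Pde6b rd1 and 1 rose and 10 fell in Pde6b rd10 at an adjusted p under 0.05, with median log2 fold changes of 0.01 and -0.43. In Prph rd2, 2 rose and 4 fell. In Pde6b rd1 the nicotinic receptor subunit gene Chrna6 (-0.59 ± 0.04 SE) and Nrn1, which encodes neuritin (-0.67 ± 0.06 SE), fell and were called. Stmn2 and Gap43, genes of growing axons, instead rose there, by 0.11 ± 0.04 SE and 0.30 ± 0.07 SE. In Pde6b rd10 Stmn2 (-0.78 ± 0.04 SE) and Gap43 (-0.94 ± 0.08 SE) fell, while Chrna6 was at 0.05 ± 0.04 SE (adjusted p = 0.317, edgeR). In Prph rd2, Gap43 (-0.50 ± 0.08 SE) and Stmn2 (-0.30 ± 0.05 SE) fell as well.

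Of the 16 genes of the axon cytoskeleton, 4 rose and 9 fell in Pde6b rd1, 5 rose and 9 fell in Pde6b rd10, and 2 rose and 5 fell in Prph rd2. Tubb2b, a tubulin of immature neurons, rose by 1.07 ± 0.04 SE in Pde6b rd1 and fell by 1.24 and 0.95 on the log2 scale in Pde6b rd10 and Prph rd2. Tubb2b CPM was 44.9 in the C3H library labelled day 13 and 48.5 in that labelled day 29, against 97.1 to 101 in the Pde6b rd1 libraries of day 13. Prph, the gene of peripherin, an intermediate filament protein and not the gene mutated in Prph rd2, fell in Pde6b rd1 (-1.52 ± 0.20 SE) and rose in Pde6b rd10 (2.51 ± 0.10 SE). Of 13 tested axon injury genes, Atf3, a stress-induced transcription factor, rose in every model, by 2.30 ± 0.13 SE in Pde6b rd10, 1.34 ± 0.14 SE in Prph rd2 and 0.81 ± 0.16 SE in Pde6b rd1. Sprr1a was at or under the floor. In all, 5 injury genes rose and 3 fell in Pde6b rd1, 1 rose and 6 fell in Pde6b rd10, and 2 rose and 2 fell in Prph rd2.

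Genes of ganglion cell types also differed between the models. Kcng4, a potassium channel gene of alpha ganglion cells, fell in Pde6b rd1 (-0.60 ± 0.06 SE) and rose in Pde6b rd10 (0.76 ± 0.06 SE), and so did Penk (-1.29 ± 0.14 SE and 0.76 ± 0.11 SE), which encodes a neuropeptide precursor. Jam2 fell by 0.82 on the log2 scale in Pde6b rd10. Spp1 (osteopontin) rose by 3.21 ± 0.12 SE there and is also a gene of activated microglia, whose 7 markers summed to 134 to 138 CPM in Pde6b rd10 against 50.7 to 54.7 CPM in C3H. Of the list of 15 type genes, 1 rose and 5 fell in Pde6b rd1, 3 rose and 6 fell in Pde6b rd10 and 1 fell in Prph rd2. Of the melanopsin cell genes, of which 9 were tested in Pde6b rd1 and 10 in the other models, 1 rose and 3 fell in Pde6b rd1, 4 rose and 2 fell in Pde6b rd10 and 1 rose in Prph rd2. Rasgrp1 fell in Pde6b rd1 (-0.71 ± 0.08 SE) and rose in Pde6b rd10 (1.25 ± 0.06 SE), and the G protein gene Gna14 rose by 4.30 ± 0.20 SE in Pde6b rd10, while Opn4 itself did not pass against C3H.

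**Figure D4:**
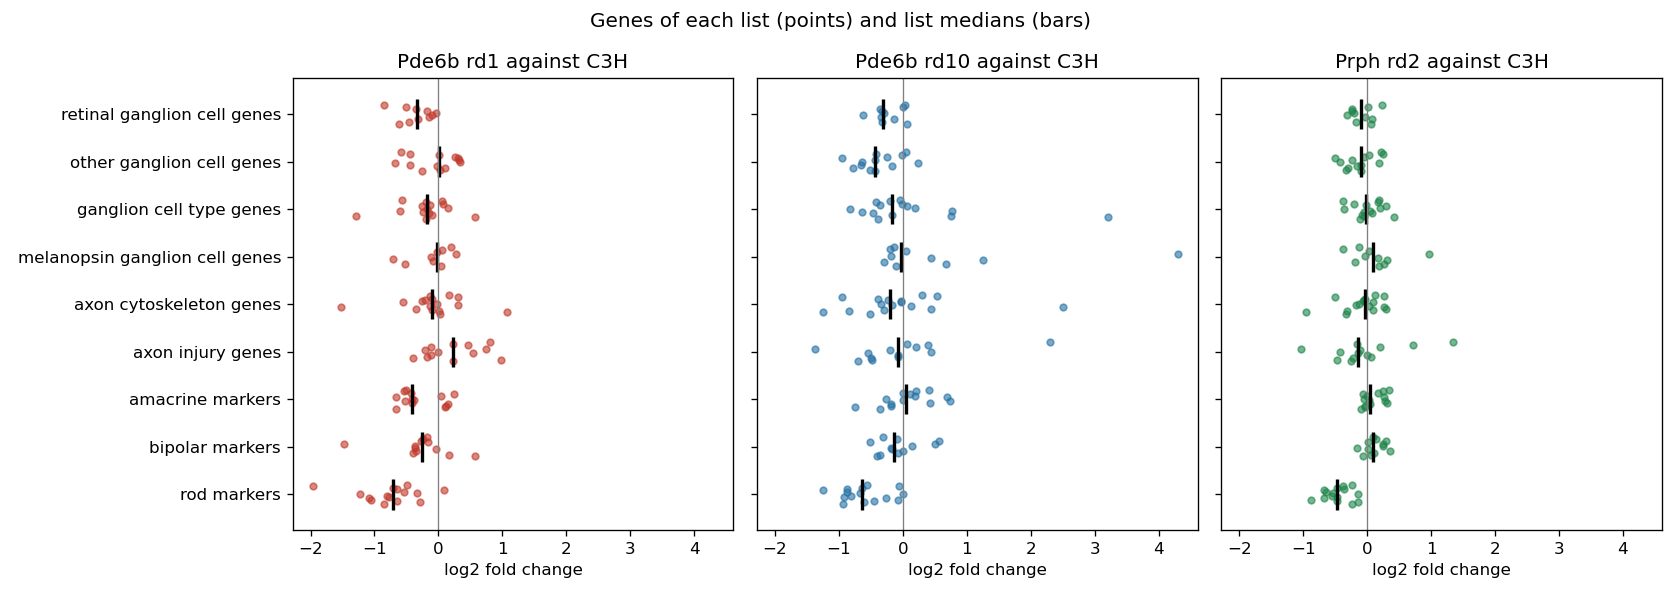
Log2 fold change (x axes) of every tested gene of 9 lists (points) with the median of the list (bars), in each model against C3H. The other ganglion cell genes have medians of 0.01, -0.43 and -0.10 in Pde6b rd1, Pde6b rd10 and Prph rd2, and the rod markers of -0.70, -0.65 and -0.48.

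Markers of the other retinal cells moved beside these results, and their part in them was not tested. The 15 rod markers summed to 37668 to 38335 CPM in C3H and to 20797 to 21186, 29698 to 30257 and 26000 to 27547 CPM in Pde6b rd1, Pde6b rd10 and Prph rd2. The 10 members summed to 1307 to 1321 CPM in C3H, 939 to 971 CPM in Pde6b rd1, 1225 to 1269 CPM in Pde6b rd10 and 1290 to 1371 CPM in Prph rd2. This sum was lowest in Pde6b rd1, where Nefl alone held 450 to 456 CPM. Pou4f1, Pou4f2, Rbpms and Opn4 had their lowest means in Pde6b rd10. Also below C3H in Pde6b rd1 were the amacrine (1218 to 1250 against 1350 to 1365 CPM), horizontal (194 to 196 against 230 to 236 CPM) and bipolar sums (2429 to 2450 against 2701 to 2755 CPM). So were the Mueller glia (1963 to 2007 against 3526 to 3635 CPM), astrocyte (158 to 164 against 241 to 247 CPM) and vascular sums (603 to 616 against 701 to 705 CPM). The markers did not all fall. At an adjusted p under 0.05 (edgeR), 3 amacrine markers rose and 9 fell there, 2 and 2 horizontal, and 2 and 9 bipolar. For Mueller glia it was 0 and 6, for astrocytes 1 and 2, and for vessels 0 and 6 of 7. Of all genes tested in Pde6b rd1, 21.9% rose and 21.3% fell at that threshold. All 8 Mueller glia, all 14 amacrine, all 12 bipolar and all 6 horizontal markers were above the floor in every group. Inner retina scaling moved the median log2 fold change of all genes in Pde6b rd1 from -0.01 to 0.15, and with it 6 members passed as lower, where 10.6% of all genes did so, with Nefh at -0.69 and Nefl at -0.35. In Pde6b rd10, where Pou4f2 and Rbpms were lowest, the 5 astrocyte markers, Gfap among them, summed to 578 to 587 against 241 to 247 CPM in C3H. The 7 vascular markers summed to 552 to 557 against 701 to 705 CPM. The 5 genes of the T cell list summed to 17.3 to 17.5 against 1.41 to 1.53 CPM, with Cd3e at or under the floor in every group. That sum mainly followed Ptprc, at 14.6 to 15.4 CPM in Pde6b rd10 against 1.20 to 1.48 CPM in C3H. It was not read as a measure of T cells. Cd8a had 27 to 35 reads in Pde6b rd10, Cd4 10 to 18 and Cd3g 1 to 4. At an adjusted p under 0.05 (edgeR), 2 of the astrocyte markers rose and 2 fell in Pde6b rd10, and 3 of the vascular markers fell and none rose. Of all genes tested there, 27.7% rose and 26.3% fell. Both tested genes of the T cell list, Ptprc and Cd8a, rose. Of 10 oligodendrocyte markers, cells of the optic nerve, Mobp and Mog were at or under the floor in every group, and the sum was 44.5 to 50.8 CPM over all 12 samples.

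Of 12510 circRNAs, 1 had a member as its host, an Rbpms circRNA (chr8:33834303-33866404, minus strand) with 2 junction reads in C3H replicate 1 and 0 in the other samples. This is under the floor of 3 counts, and with 9819 to 25009 junction reads per sample no comparison was made. The median of the members, on centred log2 CPM, was 0.12 to 0.18 in C3H, 0.09 to 0.13 in Prph rd2, -0.10 to -0.03 in Pde6b rd10 and -0.20 to -0.14 in Pde6b rd1. The 5 genes nearest to this pattern by root mean square distance over the 12 samples, among 16573 genes, were Desi1 (0.0343), Tmem175 (0.0441), Sec14l1 (0.0454), Mab21l1 (0.0456) and Clstn1 (0.0481). Among the members, Sncg (0.0921) and Slc17a6 (0.0926) lay nearest to the median of the 10 and Nefh (0.333) and Pou4f2 (0.267) farthest from it.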

How the data were processed

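Total RNA of entire mouse retinae was depleted of ribosomal RNA, made into directional libraries and sequenced, 3 samples for each of 4 groups, which were taken from the sample labels. For the deposited counts, the authors mapped cleaned reads to GRCm38 and tallied them per gene with HTSeq 0.11.2, with no normalization. FPKM, as deposited, is the count over the exonic length of the gene and the total of gene reads. The authors deposited circRNA junction counts (TopHat2 2.1.1 and CIRCexplorer) and circRNA TPM values, which were not used here. The 10 genes and the lists of other genes were chosen with earlier results of these data known.

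Counts were tested in R 4.3.3 with edgeR 4.0.16 (TMM, filter on low counts, quasi-likelihood test), each model against the 3 C3H samples, over 18310 (Pde6b rd1), 18704 (Pde6b rd10) or 18581 (Prph rd2) genes. Models were compared by contrasts in a fit of all 12 samples. P-values were adjusted by the Benjamini-Hochberg method over all genes tested. Calls needed an unadjusted p under 0.05 together with at least 1.5-fold. The CPM values are scaled by TMM over the 12 samples, and group overlap was read from them. Ratios of 2 genes were compared by exact permutation tests. Gene positions and overlaps came from GENCODE, upstream sequences from RefSeq (GRCm38.p6). The genes named are all 10 members, up to 4 called genes per list by smallest p, Pde6b, Prph2 and Xist, and the 5 genes nearest to the members. Glul, Tubb2b and Ddx3y were read per sample after the values were seen. Alternatives tried were RLE size factors, DESeq2 1.42.0, the fit by limma 3.58.1 of log2(FPKM + 1) or log2(FPKM + 0.1) values, no filter, inner retina scaling, the replicate number as a block, all 12 samples in 1 fit, the C3H sample of the same labelled day alone, each sample left out and, added later, a GC correction. Steps were tested on simulated counts. Counting error only is covered by the floor of 3 counts.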

Additional observations from a re-analysis of the deposited data

Results flagged for a closer look

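Nefh and Thy1 differed between the models, by the direct contrast in the fit of all 12 samples. The log2 difference of Nefh was 0.91 between Pde6b rd10 and Pde6b rd1 (adjusted p = 3.83e-09, edgeR) and 1.10 between Prph rd2 and Pde6b rd1 (adjusted p = 6.15e-10, edgeR), with all 3 samples of the first group above all 3 of the second in both. The log2 difference of Thy1 was 0.72 between Pde6b rd10 and Pde6b rd1 (adjusted p = 4.30e-09, edgeR) and 0.71 between Prph rd2 and Pde6b rd1 (adjusted p = 1.48e-08, edgeR), again with no overlap. With inner retina scaling Nefh was still called in both contrasts (0.74 and 0.83) and Thy1 in neither (0.55 and 0.44, under 1.5-fold). The Pde6b rd1 libraries are the only ones without reads of Ddx3y and the only model libraries of day 13. Sex, age and genotype cannot be told apart in these contrasts. Nor can strain for Pde6b rd10 and, if its label holds, for Prph rd2.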

How the results depend on the processing

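The log2 fold changes of the 10 genes against C3H were recomputed under the alternatives, 480 values in all, of which 408 kept their direction and their side of the threshold. Counts of members were recomputed too, those between models under fewer alternatives. Ratios, gene lists and marker sums were not. The cause of the changes below was not tested. In Pde6b rd1 the 2 calls became 1 with inner retina scaling, either limma fit or the GC correction. In Pde6b rd10 the 1 call (Pou4f2) became 0 with either limma fit and with the C3H sample of the same labelled day alone, and ranged from 0 to 1 when single samples were left out. Pde6b rd10 against Pde6b rd1 gave 2 to 3 calls when single samples were left out, and with inner retina scaling 1 higher and 1 lower, in place of 2 higher, while the median of the members turned from 0.09 to -0.08. Prph rd2 against Pde6b rd1 gave 1 with inner retina scaling, and the median turned from 0.23 to -0.04. In Prph rd2 against C3H that scaling gave 3 members lower and none higher at an adjusted p under 0.05 (2322 and 431 of all genes). The median of all genes was then -0.09. By the same threshold in Pde6b rd10 against C3H, the GC correction gave 1 member higher and 7 lower (5819 and 5376 of all genes). Without Pde6b rd10 replicate 3 it was 1 higher and 6 lower (5013 and 4716 of all genes). Either limma fit gave 5 lower and none higher (3756 and 5785 of all genes with 1 added, 3727 and 5747 with 0.1 added). The 3 genes of Prph rd2 with an adjusted p under 0.05 became 1 with DESeq2 and with the replicate block, 0 with either limma fit and the same-day C3H sample, and 0 to 3 when single samples were left out. Log2 fold changes that changed sign lay near 0. With inner retina scaling they were 0.012 for Rbpms, 0.058 for Pou4f2 and 0.11 for Pou4f1 in Pde6b rd1, and -0.071 for Nefl, -0.023 for Slc17a6 and -0.029 for Thy1 in Prph rd2. With limma, Pou4f1 in Pde6b rd1 was 0.027 with 1 added and 0.029 with 0.1 added. In Pde6b rd10 Nefl was -0.0053 with DESeq2, -2.1e-05 with RLE size factors and -0.0062 without the filter. When single samples were left out there, Nefl ranged from -0.0043 to 0.0074 and Nefh from -0.041 to 0.11. Rbpms in Prph rd2 was 0.011 against the same-day C3H sample. In that alternative the lone C3H sample is assumed to vary like the model samples. Replicate numbers were shared by the groups, and the main fits did not pair the samples by them. The correlation of same-numbered deviations was 0.0520 to 0.0953 in Pde6b rd1, where 6 of 6 samples correlated best with their own number. It averaged -0.0483 in Pde6b rd10 and -0.0400 in Prph rd2, where 1 and 2 of 6 samples did so. Samples of the same number thus went together, weakly, in Pde6b rd1 alone. With the replicate block, 2, 1 and 0 members were called in Pde6b rd1, Pde6b rd10 and Prph rd2 (2774, 4434 and 855 of all genes). In the same order, 6, 6 and 1 members passed the adjusted p (7575, 9512 and 1202 of all genes). Opn4, with 72 to 122 reads per sample, is the member most limited by depth.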
